A study of Saccharomyces cerevisiae with 8 samples.

Results

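Cryptic unstable transcripts (CUTs) are short non-coding RNAs that RNA polymerase II of budding yeast makes from promoters shared with genes, from gene ends and against genes. The Nrd1-Nab3-Sen1 complex ends their transcription early, the TRAMP complex adds a short poly(A) tail, and the nuclear exosome with its exonuclease Rrp6 degrades them, so that few normally reach the cytoplasm. Upf1 is the RNA helicase of nonsense-mediated decay (NMD), a cytoplasmic pathway that needs translation, and cycloheximide (CHX) stops ribosomes during elongation. Here all features named CUT plus a number were taken from the deposited table of read densities: 925 of 11993 features (7.71%). The choice rests on the annotation and on no measured value.

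All cells were the haploid laboratory strain BY4741 (MATa his3Δ1 leu2Δ0 met15Δ0 ura3Δ0), grown in YPD at 30 °C to an OD600 of 0.5 and treated for 15 min. The 4 groups were wild type (WT) with the solvent DMSO, WT with 100 µg/ml CHX, upf1 cells (a upf1Δ::kanMX4 deletion in the same background) with DMSO, and upf1 cells with 100 µg/ml CHX. Each had 2 libraries of strand-specific total RNA after removal of ribosomal RNA, which the series calls biological replicates. The labels do not say whether they came from separate cultures, so the p-values cover the spread between these libraries. NAM7, the gene of Upf1, had 1901 to 4143 reads in the 4 WT libraries and 45 to 161 in the 4 upf1 libraries.

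A density is the number of reads per nucleotide of a feature after scaling of the library, and the scaling factors matched a scaling on 76 small nucleolar RNAs (snoRNAs) to within 0.402%. A density therefore is a level against the snoRNAs, and in bulk RNA fewer cells and less RNA per cell cannot be told apart. Library depth was 9.09 M to 25.6 M reads. The CUTs held 0.108% to 0.21% of the reads of a library, and the median CUT had 6 to 25 reads, so single CUTs were measured coarsely. Over all features with at least 20 reads in a pair, the 2 libraries of a group differed by a chi-square per degree of freedom of 4.05 to 17.2, so no pair was counted as 1 library. Over CUTs alone (384 to 680) the ratio was 0.758 to 0.919, below the value of 1 that independent counting gives, and it was also below 1 for NUTs, SUTs and XUTs with 20 to 100 reads. The recovered reads of a CUT were even numbers in 60.1% to 65.1% of CUTs per library. Why replicates lie closer than independent counts was not tested, and the p-values below rest on this spread.

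The recovered lengths of the CUTs ran from 105 to 3433 nt with a median of 377 nt, shorter than the median of 594.5 nt for XUTs (Xrn1-sensitive transcripts), 745 nt for SUTs (stable unannotated transcripts) and 1520.5 nt for NUTs (Nrd1-unterminated transcripts). Of the 925 lengths, 896 were a multiple of 8 nt plus 1. The table lists features along the chromosomes, with 99.82% of neighbouring gene pairs in increasing order in build R64, so each CUT is placed below by the genes before and after it and not by coordinates of its own.

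CUTs were lowest in DMSO-treated WT cells and highest after CHX. The median CUT density was 0.0132 and 0.0132 in the 2 libraries of DMSO-treated WT, 0.0631 and 0.0585 in CHX-treated WT, 0.0202 and 0.0225 in DMSO-treated upf1, and 0.05 and 0.0572 in CHX-treated upf1. The ranges of the 2 treatments did not overlap in either genotype, and WT and upf1 overlapped neither with DMSO nor with CHX, where upf1 was the lower. Against the median protein-coding gene, the median CUT stood at 6.31% in DMSO-treated WT, 9.02% in CHX-treated WT, 5.87% in DMSO-treated upf1 and 6.05% in CHX-treated upf1. The number of CUTs with a group mean above a density of 0.1 was 53, 281, 100 and 243 in the same order. CHX-treated WT gave the highest group mean for 591 CUTs and CHX-treated upf1 for 323, against 6 for DMSO-treated upf1 and 5 for DMSO-treated WT.

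**Figure D1:**
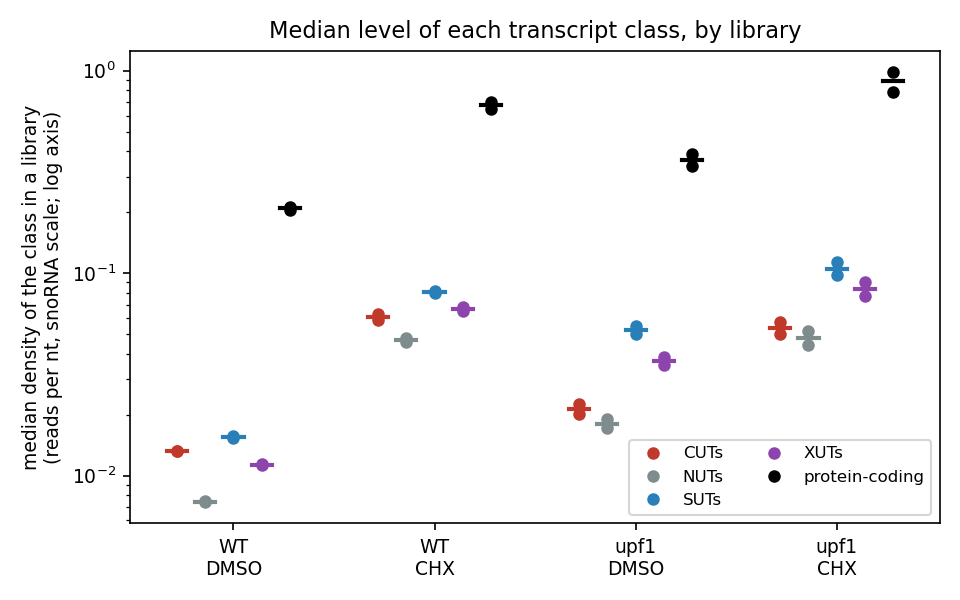
Median read density of CUTs, NUTs, SUTs, XUTs and protein-coding genes in each library (points) with the mean of the 2 libraries of a group (bars), on a log axis in reads per nt on the snoRNA scale. CUTs are above NUTs and XUTs in DMSO-treated WT, at 0.0132 against 0.00744 and 0.0113, and below XUTs and SUTs in both upf1 groups.

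The shift of the CUT median between groups was set against the shift of mRNAs. On the log2 scale the CUTs moved from DMSO-treated WT by 1.72 ± 0.0648 in CHX-treated WT, 0.42 ± 0.0738 in DMSO-treated upf1 and 1.58 ± 0.121 in CHX-treated upf1 (SD, n = 2). Relative to the shift of protein-coding genes these values were 0.17 ± 0.13, -0.16 ± 0.06 and -0.30 ± 0.0853. In CHX-treated upf1 the CUTs shifted less than mRNAs in both libraries, with values of -0.24 and -0.36. XUTs and SUTs shifted more than mRNAs in that group, by 0.52 ± 0.047 and 0.52 ± 0.0476, and NUTs by 0.08 ± 0.0675.

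Of the 925 CUTs, 916 were tested. The other 9 fell below the minimum mean density and had at most 12 reads in any library. Tests were made with limma on log2(density + 0.005488), with p-values adjusted over all 11700 features tested and a threshold of 0.05, and the constant makes changes of low CUTs look smaller. Since a level here is relative to snoRNAs, a second fit put the libraries on a scale of protein-coding genes, the mRNA scale. That rescaling moved the median log2 change over all features tested from 1.69 to 0.35 for CHX in WT, from 1.08 to -0.05 for CHX in upf1, from 0.64 to 0.05 for upf1 against WT in DMSO, and from 0.26 to -0.10 for upf1 against WT in CHX.

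Against the snoRNAs, CHX in WT cells raised CUTs about as it raised other RNAs. With CHX, 845 of 916 CUTs rose (92.2%) and 0 fell, where 95.0% of all features rose and 0.0769% fell, so the share of CUTs lay near the background. At an unadjusted p under 0.05 limma gave 847 higher and 0 lower, and voom on the recovered reads called 1 CUT lower. Without CHX-treated WT replicate 1, 2 CUTs were lower. The median log2 change of CUTs was 1.70 against 1.55 for mRNAs, 1.86 for NUTs, 1.96 for SUTs and 2.03 for XUTs. After rescaling on mRNAs 365 CUTs were higher (39.8%, against 44.1% of all features) and 61 lower (6.66%, against 18.9%), with a median of 0.52. The gap between CUTs and mRNAs turned with the constant, from 0.16 to -0.28 at 4 times its value, and was 0.33 at the smaller constant. It was 0.49 by voom, 0.25 with at least 10 reads and 0.45 on the mRNA scale.

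CUT480 showed the largest rise among CUTs of at least median level. It is 793 nt long and lies on chromosome IV between RGT2, a glucose sensor gene (lowest coordinate 213351), and ARF2, a gene of vesicle transport (216529). Its density was 0.0217 and 0.0208 in DMSO-treated WT, 0.581 and 0.628 in CHX-treated WT, 0.119 and 0.134 in DMSO-treated upf1, and 0.596 and 0.827 in CHX-treated upf1. The DMSO-treated WT libraries were lowest, both upf1 libraries with DMSO stood between them and the CHX libraries, and only the 2 CHX groups overlapped. The log2 change with CHX was 4.51 in WT (SE 0.18, limma adjusted p = 5.47e-08) and 2.43 in upf1 (adjusted p = 3.28e-06).

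CUT172, 121 nt between YLF2 and OTU2 on chromosome VIII, had densities of 0.0158 and 0.0213 in DMSO-treated WT, 0.478 and 0.46 in CHX-treated WT, 0.0815 and 0.0561 in DMSO-treated upf1, and 0.293 and 0.35 in CHX-treated upf1. All 4 groups were apart, with CHX-treated WT highest. Its log2 rise with CHX in WT was 4.31 (SE 0.21, limma adjusted p = 1.08e-07), from 2 and 5 reads. CUT401 beside YAH1, CUT526 between SDH6 and ARO10, CUT782 between GYL1 and MRPL24 and CUT493 between SNQ2 and RPL4B followed with log2 rises of 3.95, 3.89, 3.88 and 3.85. The mRNA scale gave 2.94, 2.47, 3.10 and 2.78, all past the threshold.

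In upf1 cells the median rise of CUTs with CHX was smaller than in WT. There 729 of 916 CUTs rose (79.6%) and 2 fell, while 89.0% of all features rose and 0.231% fell. The median log2 change was 1.04, against 1.14 for mRNAs, 1.09 for NUTs, 0.98 for XUTs and 0.88 for SUTs. Scaled on mRNAs, the CUTs split almost evenly, 90 higher (9.83%, background 16.1%) and 80 lower (8.73%, background 21.4%), with a median of 0.04. The count of CUTs that fell was 0 without DMSO-treated upf1 replicate 2 and 12 without CHX-treated upf1 replicate 1.

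CUT122, 289 nt between YFL015C and HSP12, a membrane stress protein gene on chromosome VI, led the named CUTs for CHX in upf1 on the deposited scale. Its density was 0.0396 and 0.0232 in DMSO-treated WT, 0.279 and 0.193 in CHX-treated WT, 0.0398 and 0.0293 in DMSO-treated upf1, and 0.379 and 0.348 in CHX-treated upf1. The 2 DMSO groups overlapped and the 2 CHX groups stood apart from each other and from them. The log2 change was 3.21 in upf1 (SE 0.25, limma adjusted p = 3.59e-06) and 2.72 in WT. CUT358 had 3.20 in upf1, and it stood above CUT122 by voom, at the smaller constant and on the mRNA scale (2.26 against 2.06). CUT358, between WRS1, which encodes tryptophanyl-tRNA synthetase, and COQ3 on chromosome XV, had 2 and 1 reads in DMSO-treated upf1 and 28 and 9 with CHX. The ratio of its summed densities was 22.5 with a 95% interval of 7.13 to 114 (exact binomial, counting error only). The interval takes each recovered read as independent, which the excess of even numbers leaves in doubt. CUT300, CUT267, CUT115 and CUT541 rose in upf1 by 2.95, 2.71, 2.64 and 2.62 on the log2 scale. Between upf1 and WT in DMSO these 6 CUTs had log2 values of -0.40 to 0.43 with limma adjusted p of 0.0578 or more. The 6 were chosen for their rise with CHX in upf1, a choice that favours low values in DMSO-treated upf1. The same libraries enter upf1 against WT in DMSO, so these values are a description.

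CUT314 and CUT226 were the 2 CUTs that fell with CHX in upf1. CUT314 is 249 nt long and lies between PCL1, a cyclin gene, and CAF40 of the Ccr4-Not complex on chromosome XIV. Its density was 0.326 and 0.232 in DMSO-treated WT, 0.238 and 0.143 in CHX-treated WT, 0.0968 and 0.211 in DMSO-treated upf1, and 0.0665 and 0.085 in CHX-treated upf1. The upf1 libraries with CHX were lowest, DMSO-treated WT overlapped CHX-treated WT, and CHX-treated WT overlapped DMSO-treated upf1. The log2 change with CHX in upf1 was -0.88 (limma adjusted p = 0.029) and missed the threshold without DMSO-treated upf1 replicate 2 at -0.34 (adjusted p = 0.315), without CHX-treated upf1 replicate 1 at -0.72 (0.168) and without CHX-treated upf1 replicate 2 at -1.05 (0.0639). CUT226, next to the snoRNA gene snR64, had a log2 change of -0.59 (limma adjusted p = 0.0118), and -0.52 (0.0594) without DMSO-treated upf1 replicate 2.

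Without Upf1 in DMSO, 728 of 916 CUTs (79.5%) had a positive change against the snoRNAs, fewer than the 91.5% of all features and 95.4% of mRNAs. Past the threshold, 304 of 916 CUTs were higher in upf1 than in WT (33.2%) and 12 lower (1.31%), where 62.0% of all features were higher and 0.889% lower. The share called was 56.3% for NUTs, 66.7% for mRNAs, 79.3% for SUTs and 79.5% for XUTs. The median log2 change was 0.43 for CUTs, 0.57 for mRNAs, 0.71 for NUTs, 1.32 for XUTs and 1.41 for SUTs, and 10% of CUTs exceeded 1.36. In DMSO-treated WT the median CUT had 6 and 10 reads in the 2 libraries and the median XUT 7 and 13.5. In DMSO-treated upf1 they had 15 and 10 against 35.5 and 25. A call depends on read number as well as on size, and the part of each in these shares was not tested.

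The direction of the CUT median in this comparison depended on the scaling, at 0.43 as deposited and -0.09 when rescaled on mRNAs. Relative to mRNAs, 145 CUTs were higher (15.8%, background 31.1%) and 128 lower (14.0%, background 20.7%), with medians of 0.91 for XUTs and 0.93 for SUTs. The CUT median minus the mRNA median was -0.14 as deposited, -0.03 by voom and 0.01 on the mRNA scale. The 12 lower CUTs became 2 without DMSO-treated WT replicate 1.

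**Figure D2:**
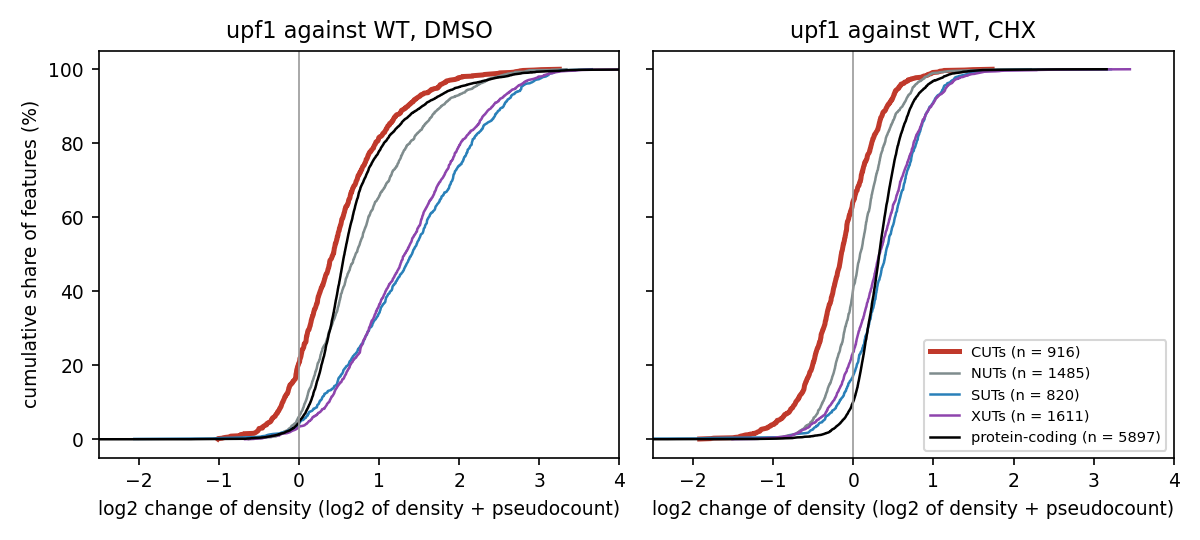
Cumulative share of features (per cent) by log2 change of density in upf1 against WT, in DMSO (left) and in CHX (right), for the tested features of 5 classes. CUTs have the lowest median in both panels, 0.43 and -0.15. On the mRNA scale the first turns to -0.09 and is no longer the lowest, with mRNAs at -0.11.

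Among the CUTs with the largest rises without Upf1, some reached in DMSO the level that CHX gave in WT. CUT256, 409 nt between YLR126C (lowest coordinate 394765) and APC2, a gene of the anaphase-promoting complex (395758), on chromosome XII, had 0.0117 and 0.0152 in DMSO-treated WT, 0.115 and 0.199 in CHX-treated WT, 0.186 and 0.162 in DMSO-treated upf1, and 0.229 and 0.362 in CHX-treated upf1. DMSO-treated WT stood far below all the others, and CHX-treated WT overlapped DMSO-treated upf1. The log2 change without Upf1 in DMSO was 3.25 (SE 0.27, limma adjusted p = 2.92e-06), and 2.77 on the mRNA scale.

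CUT046 lies on chromosome III between HTL1, a gene of the RSC chromatin remodeler (155320), and HSP30 (156109). Its 8 densities were 0.131 and 0.0868 in DMSO-treated WT, 0.546 and 0.49 in CHX-treated WT, 0.79 and 0.919 in DMSO-treated upf1, and 1.2 and 1.78 in CHX-treated upf1. The groups did not overlap, and both upf1 groups were above both WT groups. The log2 change without Upf1 was 2.93 in DMSO (SE 0.22, limma adjusted p = 1.56e-06) and 1.49 in CHX (adjusted p = 0.00347).

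CUT526 had 0.0473 and 0.0213 in DMSO-treated WT, 0.679 and 0.448 in CHX-treated WT, 0.312 and 0.21 in DMSO-treated upf1, and 0.939 and 1.22 in CHX-treated upf1. Each step from DMSO-treated WT to CHX-treated upf1 was free of overlap, and its log2 rise without Upf1 in DMSO was 2.80 (limma adjusted p = 2.43e-05). CUT573, between GYP8 and the pheromone receptor gene STE2 on chromosome VI, and CUT540, between FIT1, a cell wall gene of iron uptake, and STL1, the glycerol transporter gene, rose by 2.76 and 2.74. CUT540 had 2 and 4 reads in DMSO-treated WT, against 35 and 19 in DMSO-treated upf1. CUT425, between SDD4 and EAF3 on chromosome XVI, had 0 and 3 reads against 19 and 8, a ratio of summed densities of 8.94 with a 95% interval of 2.75 to 46.0 (exact binomial, counting error only).

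Among the 12 CUTs that were lower in DMSO-treated upf1, CUT716 had the largest fall of those of at least median level. It lies on chromosome XI between BLI1 and FBA1, the aldolase gene of glycolysis, and had 0.198 and 0.216 in DMSO-treated WT, 0.181 and 0.15 in CHX-treated WT, 0.0789 and 0.136 in DMSO-treated upf1, and 0.0677 and 0.0806 in CHX-treated upf1. Both upf1 groups were below both WT groups. The log2 change was -0.96 in DMSO (SE 0.24, limma adjusted p = 0.00498) and -1.10 in CHX (adjusted p = 0.0131). CUT314, CUT096 and CUT676 followed with -0.92, -0.74 and -0.72 in DMSO. These 3 lost the call without DMSO-treated WT replicate 1, at -0.68, -0.57 and -0.66 with limma adjusted p of 0.172, 0.115 and 0.0906, and CUT314 also without DMSO-treated upf1 replicate 1, at -0.37 (adjusted p = 0.31), and, with the change at -0.92, without either upf1 library with CHX (0.0601 and 0.0607) and in a fit to the 4 libraries compared (0.0859). CUT096 lost it without DMSO-treated upf1 replicate 2, at -0.73 (limma adjusted p = 0.061), and CUT676 without DMSO-treated upf1 replicate 1, at -0.59 (adjusted p = 0.0847), and by voom (0.171).

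**Figure D3:**
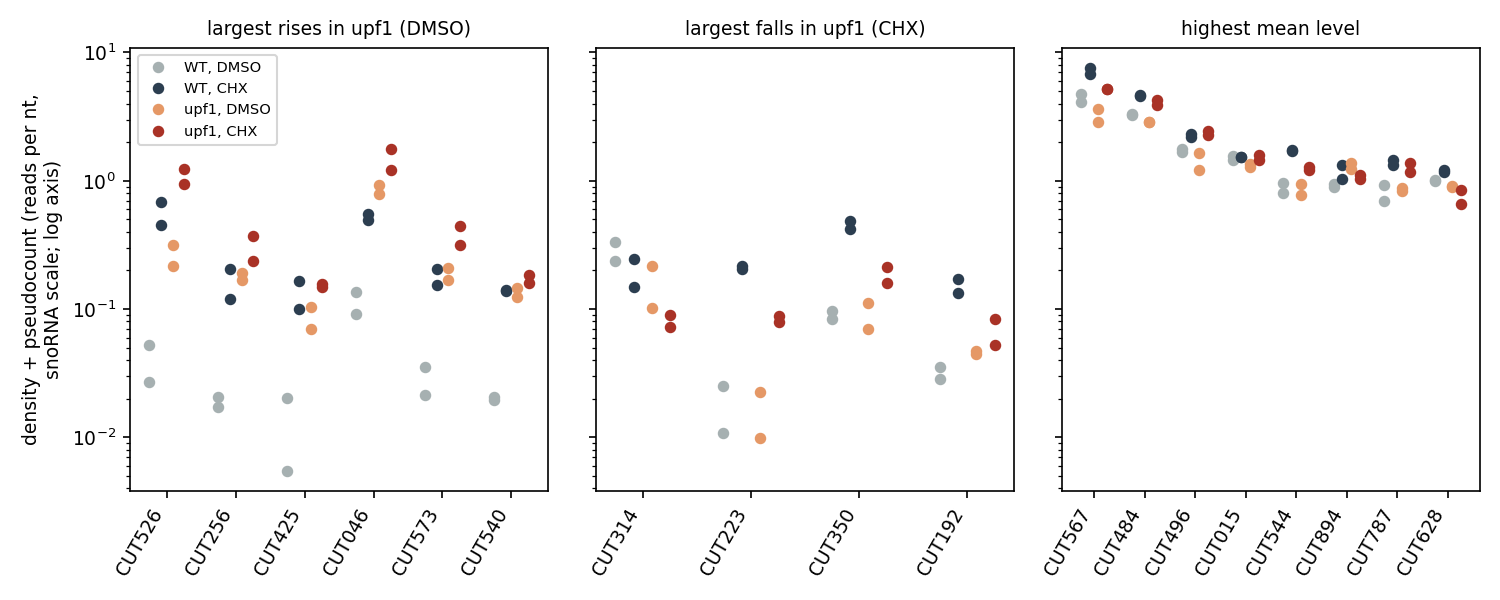
Read density plus the constant 0.005488 in each of the 8 libraries (points, log axis, reads per nt on the snoRNA scale) for named CUTs. Panels show the largest rises (DMSO) and the largest falls (CHX) in upf1 against WT, and the highest mean level. In the first panel DMSO-treated WT lies below the other 3 groups, and in the third the 4 groups of a CUT lie within a narrow band.

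With translation stopped in both genotypes, CUTs were on balance lower in upf1 than in WT. In CHX 18 of 916 CUTs were higher in upf1 (1.97%) and 60 lower (6.55%), where 16.5% of all features were higher and 1.44% lower. The median log2 change was -0.15 for CUTs and positive for the other classes, at 0.08 for NUTs, 0.32 for XUTs, 0.32 for mRNAs and 0.40 for SUTs. On the mRNA scale the CUT median was -0.46, with 6 higher (0.655%, background 5.86%) and 129 lower (14.1%, background 9.23%). There NUTs stood at -0.23, XUTs at -0.02 and SUTs at 0.05, so CUTs had the lowest median of the 4 non-coding classes and of mRNAs (-0.05) on both scales.

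The median had the same sign in the fit and in each alternative run, from -0.46 to -0.05, but the counts turned on single libraries. The 60 lower CUTs became 5 without CHX-treated WT replicate 1, 19 without CHX-treated WT replicate 2 and 3 without CHX-treated upf1 replicate 2, the shallowest library. The 18 higher CUTs became 9 without CHX-treated WT replicate 1, 3 without CHX-treated upf1 replicate 2 and 37 without CHX-treated upf1 replicate 1. Without each of these 4 libraries in turn, the CUT median minus the mRNA median was -0.58 to -0.37.

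CUT350, 273 nt between BRE5 and POP2, the gene of a deadenylase of the Ccr4-Not complex, on chromosome XIV, was among the CUTs lower in upf1. Its density was 0.0909 and 0.0776 in DMSO-treated WT, 0.479 and 0.418 in CHX-treated WT, 0.0642 and 0.106 in DMSO-treated upf1, and 0.208 and 0.155 in CHX-treated upf1. The genotypes overlapped in DMSO and were apart in CHX, where upf1 was lower. The log2 change was -1.29 in CHX (SE 0.23, limma adjusted p = 0.00749) and -0.02 in DMSO (adjusted p = 0.937). The call in CHX was lost without CHX-treated WT replicate 1, at -1.19 (limma adjusted p = 0.0523), and without CHX-treated upf1 replicate 2, at -1.09 (adjusted p = 0.0852).

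CUT223, CUT314 and CUT192 were the others named by the rule, with log2 changes of -1.34, -1.24 and -1.20 in CHX. CUT192 is next to a serine tRNA gene and had 0.129 and 0.166 in CHX-treated WT against 0.0775 and 0.0472 in CHX-treated upf1. Its limma adjusted p was 0.011, and 0.0618 without CHX-treated WT replicate 2 and 0.0966 without CHX-treated upf1 replicate 2, where the change was -0.87. CUT223 passed at an adjusted p of 0.0452 by limma and missed the threshold in 4 of 4 fits that left out a library with CHX, with adjusted p of 0.0956 to 0.207, on the mRNA scale (0.0816), at the smaller constant (0.0817) and with no filter (0.0526). CUT314 missed it without CHX-treated WT replicate 1 at -0.88 (limma adjusted p = 0.2), without CHX-treated upf1 replicate 1 at -1.07 (0.104) and without CHX-treated upf1 replicate 2 at -1.40 (0.141).

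Of the CUTs of at least median level that were higher in upf1 in CHX without overlap, CUT046 had the largest change (1.49). CUT845, outside that rule and named after its value was seen, had 1.73, from 3 and 1 reads in CHX-treated WT and 9 and 6 in CHX-treated upf1. CUT546, 904 nt on chromosome V between a glycine tRNA gene and an XUT, had 0.0496 and 0.0566 in DMSO-treated WT, 0.299 and 0.305 in CHX-treated WT, 0.35 and 0.398 in DMSO-treated upf1, and 0.565 and 0.732 in CHX-treated upf1. The groups did not overlap. Its log2 change without Upf1 was 2.69 in DMSO (SE 0.17, limma adjusted p = 6.8e-07) and 1.08 in CHX (adjusted p = 0.00423), from 47 to 648 reads. CUT391, CUT924, CUT573 and CUT326 had log2 changes of 1.13, 1.12, 1.07 and 1.06 in CHX. These 4 lost the call without CHX-treated upf1 replicate 2, at 0.71, 0.87, 0.83 and 0.86 with limma adjusted p of 0.282, 0.0769, 0.189 and 0.05. CUT391 also lost it without CHX-treated WT replicate 2, at 0.73 (adjusted p = 0.173), and by voom (0.0512), and CUT924 and CUT573 without CHX-treated WT replicate 1, at 0.95 (0.0755) and 0.87 (0.145), all by limma. On the mRNA scale CUT391 and CUT573 missed it, at 0.74 and 0.69 (limma adjusted p = 0.158 and 0.107).

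The effects of Upf1 in DMSO and in CHX come from separate libraries and were set side by side over the 916 CUTs. The log2 changes had a Pearson correlation of 0.48 across CUTs, which are not independent replicates and share the fit, the feature length and the read depth. The 2 changes had the same sign in 448 CUTs (48.9%) as deposited, where the CUT medians were 0.43 and -0.15. On the mRNA scale they did in 562 (61.4%), so this count depends on the scaling. Of the 304 CUTs higher in upf1 in DMSO, 15 were higher in CHX (4.93% of the 304, and 83.3% of the 18 called there), and 4 were lower. Over all features 25.65% of those higher in DMSO were higher in CHX, and 96.32% of those higher in CHX were higher in DMSO. The 304 had a median of 0.09 in CHX, with 176 above 0, and the 600 not called in DMSO had a median of -0.25, with 149 above 0. For CHX in WT and CHX in upf1, also without a shared library, the correlation was 0.62 and 714 CUTs rose in both (84.5% of 845 and 97.9% of 729), against 92.6% and 98.79% over all features. On the mRNA scale the correlations were 0.46 and 0.61.

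**Figure D4:**
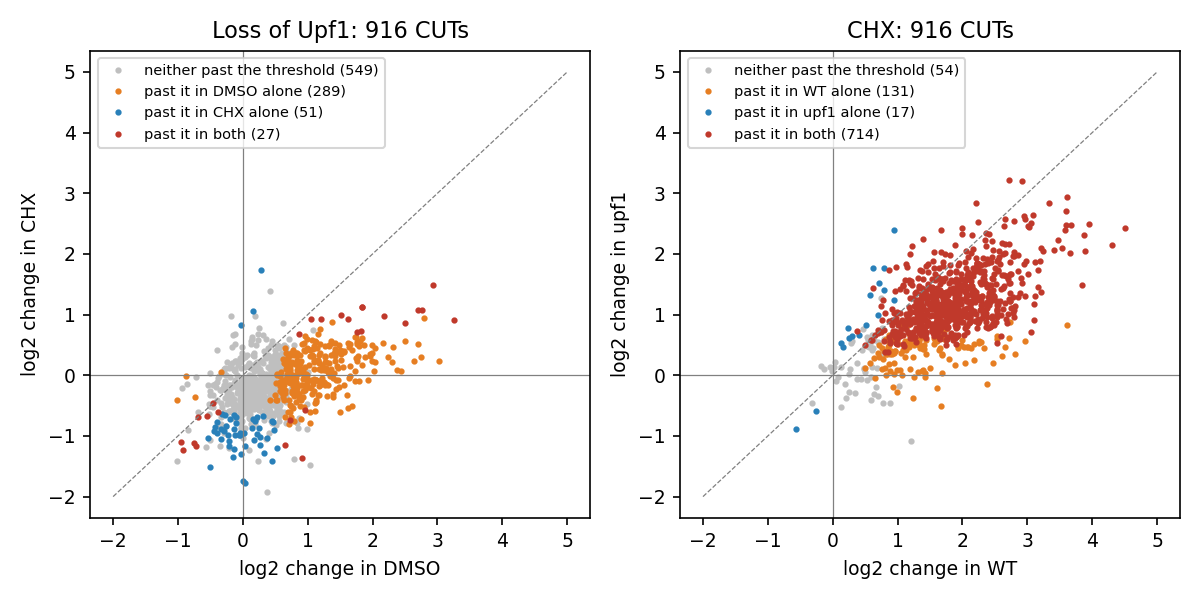
Log2 change of each of the 916 tested CUTs without Upf1 in DMSO against that in CHX (left), and with CHX in WT against that in upf1 (right). Colours show in which comparison the limma adjusted p was under 0.05, and the dashed line marks equal changes. On the left, 15 CUTs were higher in both, and on the right, 714.

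The test of the difference itself asked whether CHX moved a CUT less in upf1 than in WT. It did so past the threshold for 203 CUTs (22.2%) and more for 1 (0.109%), where 25.3% and 0.205% of all features were called in these directions, so the share of CUTs was near the background. The median difference was -0.61 for CUTs, -0.27 for mRNAs, -0.72 for NUTs, -1.03 for XUTs and -1.06 for SUTs. After rescaling on mRNAs 125 CUTs were called lower (13.6%, background 21.6%) and 6 higher (0.655%, background 2.46%), with a median of -0.40. The 203 became 111 without DMSO-treated upf1 replicate 2, 122 without CHX-treated WT replicate 1 and 135 without CHX-treated upf1 replicate 1, and the 1 became 0 to 3.

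CUT540 and CUT490 had differences of -2.45 and -2.39 (limma adjusted p = 0.00047 and 0.00179). CUT490 is 185 nt long and lies between RTK1 and DIA3 on chromosome IV. It had 0.031 and 0.0195 in DMSO-treated WT, 0.197 and 0.27 in CHX-treated WT, 0.142 and 0.234 in DMSO-treated upf1, and 0.239 and 0.315 in CHX-treated upf1. DMSO-treated WT alone was low, and CHX-treated WT overlapped both upf1 groups. CUT425 had a fitted difference of -2.78 (limma adjusted p = 0.0129), from 0 and 3 reads in DMSO-treated WT, and lost the call on the mRNA scale (0.0754) and without CHX-treated upf1 replicate 1, at -2.74 (0.0709).

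CUT326, 137 nt between IES2, a gene of the INO80 chromatin remodeler, and PEX17 of peroxisome import on chromosome XIV, was the 1 CUT with a larger rise in upf1. It had 0.0557 and 0.0528 in DMSO-treated WT, 0.133 and 0.135 in CHX-treated WT, 0.06 and 0.0619 in DMSO-treated upf1, and 0.248 and 0.328 in CHX-treated upf1. The upf1 libraries with CHX were the highest, and the DMSO libraries of both genotypes lay close together. The difference was 0.90 (SE 0.25, limma adjusted p = 0.0242), and it missed the threshold by voom (0.239) and in the 6 fits without 1 of the libraries of the other 3 groups, with adjusted p of 0.0522 to 0.0768.

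The most abundant CUTs behaved unlike the median CUT. The 8 CUTs of highest mean level held 9.03% to 25.5% of the CUT reads of a library. CUT567, 145 nt next to the snoRNA gene snR52 on chromosome V, had 4.74 and 4.13 in DMSO-treated WT, 7.57 and 6.79 in CHX-treated WT, 2.86 and 3.64 in DMSO-treated upf1, and 5.22 and 5.2 in CHX-treated upf1. In both genotypes the CHX libraries were higher, and upf1 was lower than WT under both treatments. The log2 changes were 0.70 with CHX in WT and -0.45 without Upf1 in DMSO (limma adjusted p = 0.000677 and 0.0186), and on the mRNA scale the first turned to -0.84.

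CUT484, between the ribosomal protein genes RPL13A and RPP1A on chromosome IV, had 3.24 and 3.3 in DMSO-treated WT, 4.63 and 4.59 in CHX-treated WT, 2.86 and 2.89 in DMSO-treated upf1, and 4.24 and 3.88 in CHX-treated upf1. The CHX libraries stood above the DMSO libraries. CUT496, CUT544, CUT894, CUT787 and CUT628 lie beside TPI1, RPL12A, SSE1, RPL20A and TDH3, genes of glycolysis, the ribosome and an Hsp110 chaperone. CUT544 is also next to the snoRNA gene snR80. CUT015 is next to a valine tRNA gene on chromosome II, with 1.45 and 1.55 in DMSO-treated WT and 1.53 and 1.54 in CHX-treated WT.

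The 8 had log2 changes of 0.04 to 0.98 with CHX in WT, against 1.70 for the median CUT, and on the mRNA scale the 8 values turned to -1.50 to -0.55. CUT015, CUT894 and CUT628 did not pass the threshold as deposited (limma adjusted p = 0.797, 0.0523 and 0.133). Their more abundant flanking gene exceeded 96.9% to 99.98% of protein-coding genes in mean density in 6 of the 8, and 88.3% and 33.9% for CUT567 and CUT015. With CHX in WT the log2 changes of TDH3, TPI1, RPP1A, RPL20A and RPL12A were 0.23, 0.38, 0.45, 0.65 and 0.75, and those of the CUTs beside them 0.25, 0.38, 0.49, 0.80 and 0.98. The other 3 pairs were SSE1 at 0.27 beside CUT894 at 0.34, GLC7 at 1.18 beside CUT567 at 0.70, and TCM62 at 1.90 beside CUT015 at 0.04. The share of reads that such genes gave to these CUTs was not tested.

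CUTs of ordinary level were measured from few reads. CUT288, between LFT1 and CGI121 on chromosome XIII, had 6 and 14 reads in DMSO-treated WT, 29 and 28 in CHX-treated WT, 19 and 10 in DMSO-treated upf1, and 34 and 10 in CHX-treated upf1. As densities these were 0.0102 and 0.0129, 0.0786 and 0.0712, 0.0185 and 0.0151, and 0.0478 and 0.0472. The CHX groups stood apart with WT the higher, and the DMSO groups were low. CUT065, beside the repressor gene NRG1 on chromosome IV, had 0.00959 and 0.0141 in DMSO-treated WT against 0.0322 and 0.0292 in DMSO-treated upf1, a log2 change of 1.07 (limma adjusted p = 0.00122). CUT711, between VMA5 and SMY1, had 0.46 there (adjusted p = 0.217).

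The median response was similar in short and long CUTs. For upf1 against WT in DMSO the median log2 change was 0.42 in the shortest CUTs (105 to 297 nt, n = 305), 0.37 in the middle (n = 305) and 0.48 in the longest (489 to 3433 nt, n = 306). From short to long, 34.8%, 26.2% and 38.6% were called higher. By mean level, which includes the groups compared, the median log2 change was 0.31, 0.46 and 0.53 from low to high. There 16.7%, 35.4% and 47.4% were called higher, where 62.0% of all features were. No test was made of these splits.

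The features next to a CUT in the table went with its response to loss of Upf1. CUTs with an XUT, NUT or SUT in a neighbouring row (n = 585) had a median log2 change of 0.48 in DMSO-treated upf1 and 38.1% called higher, and those without (n = 331) 0.24 and 24.5%. Next to a SUT (n = 61) the values were 0.77 and 52.5%, and next to another CUT (n = 115) 0.26 and 26.1%. Each of these shares was below the 62.0% of all features called higher. With CHX in WT the first 2 sets were alike, at 1.75 and 1.63. Whether CUTs share reads with these neighbours was not tested, since no CUT coordinates were used here. Changes of the flanking genes went little with those of the CUT. Pearson correlations were -0.01 to 0.21 over the 4 comparisons, as a description. They were taken across 913 CUTs with a tested gene before and, separately, 913 with a tested gene after.

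Most genes that make and degrade CUTs rose against the snoRNAs with CHX and without Upf1, as did most mRNAs. All 13 genes of the nuclear exosome and its cofactors, all 5 TRAMP genes and all 6 genes of Nrd1 termination rose with CHX in WT, where 97.7% of protein-coding genes rose, with median log2 changes of 1.78, 1.84 and 1.36 around the mRNA median of 1.55, which became 0.25, 0.32 and -0.17 on the mRNA scale. There 7, 3 and 2 genes were higher and 0, 1 and 1 lower, against 34.9% and 30.7% of protein-coding genes. NRD1, the gene of the RNA-binding termination factor, had the largest rise of the 6 (2.45, and 0.92 on the mRNA scale), and MPP6, an exosome cofactor gene, that of the 13 (2.21).

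Without Upf1 in DMSO, 12 of the 13 exosome genes, 5 of 5 TRAMP genes and 3 of 6 Nrd1 termination genes were higher, beside 66.7% of protein-coding genes, with medians of 0.59, 0.68 and 0.49 that became -0.11, 0.000647 and -0.20 on the mRNA scale. There 1, 0 and 0 were higher and 1, 1 and 3 lower, against 23.3% and 31.4% of protein-coding genes. RRP6, the gene of the nuclear exonuclease, changed by 0.77 as deposited. In CHX the 24 genes had log2 values of -0.27 to 0.46 between upf1 and WT, with limma adjusted p of 0.0988 or more. On the mRNA scale 3 exosome genes and 2 Nrd1 termination genes were lower in CHX, among them LRP1 at -0.44, NAB3 at -0.65 and NRD1 at -0.39, with 11.4% of protein-coding genes lower. Of 10 genes of cytoplasmic decay, 8 were higher in DMSO-treated upf1, NAM7 was lower as the deleted gene and SKI8 did not pass (0.27). NMD2, the gene of Upf2 in NMD, had the largest rise (1.10, and 0.42 on the mRNA scale), where 1 of the 10 was higher and 5 lower on that scale.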

How the data were processed

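The authors deposited 1 table with a signal for each feature, a normalized read density per library, beside group means that equal the means of the 2 replicate columns. Tools named in the submitters' processing notes are HISAT2 2.2.0, Trim Galore, DESeq2 and featureCounts 2.0.0, with build R64. Sources used here do not give the annotation or the scaling step. From these densities reads and feature lengths were recovered (all 11986 features above 0 gave whole reads within 0.001 reads), with the shortest length that fits. Intervals cover counting error only.

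All 8 libraries entered 1 limma fit (3.58.1, R 4.3.3; lmFit, contrasts.fit, eBayes with a trend) on log2(density + 0.005488), the 5th percentile of values above 0, with a mean per group and 4 residual degrees of freedom. Features with a mean below that constant (293) were left out. On simulated data with 200 features changed 4-fold among 11700, 186 were called. The simulated spread was set and not taken from these libraries, and smaller changes were not simulated. The count therefore does not measure sensitivity or false calls in these data. Alternatives were 2 other constants, 2 other filters, median-ratio rescaling on 5817 protein-coding genes, voom on recovered reads, fits to 4 libraries, a replicate block, and leaving out each library. Summaries used Python 3.11.15 with pandas 2.3.3 and numpy 2.4.6.

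CUTs named are, per comparison, up to 6 with the largest rise and 4 with the largest fall past the threshold, at least median mean density and no overlap of replicates, up to 3 of each sign for the difference of CHX effects, the 8 of highest level and the 3 nearest the median level (41 in all). Members and gene lists were chosen with earlier results of these data known. The splits by table neighbours were chosen after their values were seen.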

Additional observations from a re-analysis of the deposited data

Results flagged for a closer look

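By limma's test of the difference itself, 203 CUTs (22.2%) had a smaller log2 effect of CHX in upf1 than in WT and 1 (0.109%) a larger, where 25.3% and 0.205% of all features did. Among the named CUTs the difference (upf1 minus WT, log2) was past the threshold for 18. Those named for a rise with CHX in WT or without Upf1 in DMSO were chosen on values that enter the difference with a minus sign, so their negative values are a description. The difference was -2.08 for CUT480, -2.16 for CUT172, -1.45 for CUT401, -1.85 for CUT526 and -2.37 for CUT493, which were named for their rise with CHX in WT. It was -2.35 for CUT256, -2.78 for CUT425, -1.44 for CUT046, -1.69 for CUT573, -2.45 for CUT540 and -1.62 for CUT546, CUTs that rose without Upf1. For CUT350 and CUT192, which were lower in upf1 than in WT in CHX, it was -1.27 and -1.73. They were chosen on low values that enter the difference with a plus sign, so these too are a description. For CUT490, named for the difference itself, it was -2.39. CUT267, CUT288 and CUT065 had -0.89, -0.99 and -1.22, and CUT326 had 0.90, the positive one. No group had enough libraries for a check of single outlying libraries.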

How the results depend on the processing

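With the smaller of the other constants, the CUT median was 1.91 for CHX in WT and 0.49 for upf1 in DMSO, and the CUT median minus the mRNA median was 0.33 for CHX in WT and -0.017 for CHX in upf1. With 4 times the constant, medians were 1.14 and 0.72 for CHX in WT and upf1, 0.22 for upf1 in DMSO and -0.39 for the difference of CHX effects, the gaps to mRNAs -0.28, -0.35, -0.29 and -0.16, and 105 CUTs were lower in upf1 in CHX. Without a filter 1 CUT fell with CHX in WT, and with at least 10 reads the medians were 1.80 for CHX in WT and 0.49 for upf1 in DMSO. On the mRNA scale higher and lower CUTs were 365 and 61 for CHX in WT, 90 and 80 for CHX in upf1, 145 and 128 for upf1 in DMSO, 6 and 129 for upf1 in CHX, and 6 and 125 for the difference. Medians there were 0.52, 0.044, -0.091 (a change of sign), -0.46 and -0.40, and the first 3 gaps to mRNAs 0.45, 0.10 and 0.015. By voom, medians were 2.10, 1.23, 0.56 and -0.78 for CHX in WT, CHX in upf1, upf1 in DMSO and the difference, gaps 0.49, 0.072, -0.032 and -0.48, with 1 CUT lower with CHX in WT and 0 with a larger CHX effect in upf1. The causes were not tested. Leaving out 1 library at a time, CHX in WT gave 0 to 2 lower CUTs, medians of 1.67 to 1.77 and gaps of 0.080 to 0.26. CHX in upf1 gave 0 to 12 lower and medians of 0.96 to 1.15. In DMSO, upf1 gave 2 to 14 lower, medians of 0.36 to 0.47 and gaps of -0.22 to -0.10. In CHX it gave 3 to 37 higher, 3 to 67 lower and medians of -0.23 to -0.048. The difference gave 0 to 3 higher, 111 to 217 lower, medians of -0.71 to -0.53 and gaps of -0.46 to -0.26. For CUTs named for a change, 600 values under alternatives were compared, each in the comparison that named the CUT. Of these, 47 missed the threshold and 0 changed sign while called. CUTs named for their level are not among the 600. Of those, CUT567, CUT484, CUT496, CUT544 and CUT787 turned from higher to lower with CHX in WT on the mRNA scale, past the threshold on both scales. Deviations of same-numbered replicates had correlations of -0.07 to 0.08 between groups, which shows no pairing by number but cannot exclude it. With a replicate block, 27 CUTs were higher and 76 lower for upf1 in CHX, against 18 and 60 without it. A median of 6 to 25 reads limits single CUTs, and 2 libraries a group leave 4 residual degrees of freedom.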

Other observations

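CUTs listed next to a snoRNA gene had other values than the rest, a set chosen after its values were seen and therefore not tested. These 25 CUTs had a median mean density of 0.131, against 0.0377 for all tested CUTs. With CHX in WT their median log2 change was 1.28 and 17 rose, where 95.0% of all features rose. Without Upf1 in DMSO it was -0.04 with 1 higher, where 62.0% of all features were, and in CHX -0.46. CUT567 and CUT544, of the 8 most abundant CUTs, and CUT226, which fell with CHX in upf1, are among them. The share of their reads that comes from the snoRNA next to them was not tested.

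Replicate libraries lay closer together than independent counts in the low non-coding features. With 20 to 100 reads in the pair, the chi-square per degree of freedom over the 4 groups was 0.639 to 0.792 for CUTs, 0.61 to 0.947 for SUTs, 0.764 to 0.999 for XUTs and 0.865 to 0.931 for NUTs. For protein-coding genes in that range it was 1.15 to 1.43. Even read numbers made up 58.9% to 65.1% of the features of these classes per library. The cause was not tested.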
